A study of Mus musculus with 6 samples.

Results

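Genes of DNA double-strand break, crosslink and mismatch repair and of the DNA damage checkpoint were compared between C2C12 myoblasts and myotubes by RNA sequencing. The 40 genes are the rows of the count table whose symbol is on a list of Fanconi anaemia and homologous recombination genes (27), mismatch repair genes (4), end joining genes (5) and checkpoint kinases (4). All 40 were found among the 27179 genes of the table, and all 40 passed the filter on low counts. C2C12 is an established mouse myoblast line whose cells divide while serum is plentiful and fuse into myotubes with many nuclei once it is withdrawn. For the 3 myoblast libraries, cells were growing below confluence in high glucose DMEM with 10% fetal bovine serum. For the 3 myotube libraries, cells were kept at 100% confluence for 3 days and then for 5 days in high glucose DMEM with 2% horse serum and an insulin, transferrin, selenium and ethanolamine supplement. Both media held 4 mM L-glutamine. Serum, supplement, density and differentiation differ together between the groups and cannot be told apart. The labels name a harvest in triplicate and no separate cultures. The p-values therefore measure no more than the spread between these libraries, which may be technical.

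The Fanconi anaemia core complex is a ubiquitin ligase that marks FANCD2 and FANCI when replication forks meet a DNA crosslink. BRCA1, PALB2 and BRCA2 then act at resected ends in homologous recombination, in which the break is copied from the sister chromatid, which exists only after replication. Non-homologous end joining ligates broken ends directly and works in dividing and in non-dividing cells. Mismatch repair corrects errors left by replication, and the kinases ATM and ATR, acting through CHEK2 and CHEK1, halt the cell cycle when breaks or stalled forks are sensed. Myotube nuclei have left the cell cycle for good, whereas myoblasts replicate their DNA.

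Library totals ranged from 10076945 to 11723881 counts for myoblasts, and for myotubes from 7370169 to 8339589. The 8 proliferation markers (Mki67, Top2a, Ccnb1, Ccna2, Cdk1, Aurkb, Bub1 and Birc5) were all lower in myotubes, with summed levels of 2111 to 2130 CPM (counts scaled to library size) in myoblast libraries and 158 to 171 CPM in myotube libraries, and 0 of them were at 0 counts in either group. The 8 myotube markers summed to 289 to 309 CPM in myoblasts and 15467 to 16506 CPM in myotubes, and the 4 myogenic identity markers (Myod1, Myf5, Des and Cdh15) summed to 1843 to 1940 CPM and 3230 to 3339 CPM. Of these 4 only Des rose, from a mean of 1222 to 2653 CPM. The other 3 were slightly lower in myotubes, with log2 changes of −0.16 (Myod1), −0.13 (Myf5) and −0.08 (Cdh15). Of 10 markers of fat, bone, cartilage, blood, endothelial and epithelial cells, 5 had 0 counts in the myoblast group (Adipoq, Bglap, Acan, Pecam1 and Epcam) and 3 in the myotube group (Adipoq, Plin1 and Epcam). That list summed to 0.325 to 1.13 CPM in myoblast libraries and 0.947 to 1.52 CPM in myotube libraries. In RNA from whole cultures, fewer expressing cells and less RNA per cell cannot be told apart, and the part that the share of dividing cells has in the changes below was not tested.

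Most of the repair genes were lower in myotubes, and the lowest median log2 changes were those of the BRCA genes (−3.23), of Fancd2 and Fanci (−3.18) and of the strand exchange genes with Blm (−3.03). Of the 40 genes, 32 were lower and 2 higher in myotubes by edgeR's quasi-likelihood test at an adjusted p of 0.05. Over all 12800 genes tested, 39.2% were lower, 40.2% higher and 79.5% called in either direction, beside 34 of the 40. A decrease of more than 2-fold was called for 19 of the 40 genes, against 9.2% of all genes tested, and no gene of the list (0 of 40) was called higher by more than 2-fold, against 12.4%. The median log2 change of the 40 genes was −1.20, and that of all genes tested was 0.02. For 33 of the 40 genes the groups stood apart without overlap, a share near the 80.5% over all genes. In 32 of these the myotubes were the lower group, against 39.9% of all genes. By pathway, 23 of 27 Fanconi and recombination genes were lower and 1 was higher (median −1.27), 4 of 4 mismatch repair genes were lower (median −1.14), and 4 of 4 checkpoint kinases were lower (median −1.07). Of the 5 end joining genes 1 was lower and 1 higher, with a median of 0.08. Summed over the 40 genes, the level went from 1302 ± 21.0 CPM in myoblasts to 669 ± 3.79 CPM in myotubes (SD, n = 3).

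**Figure D1:**
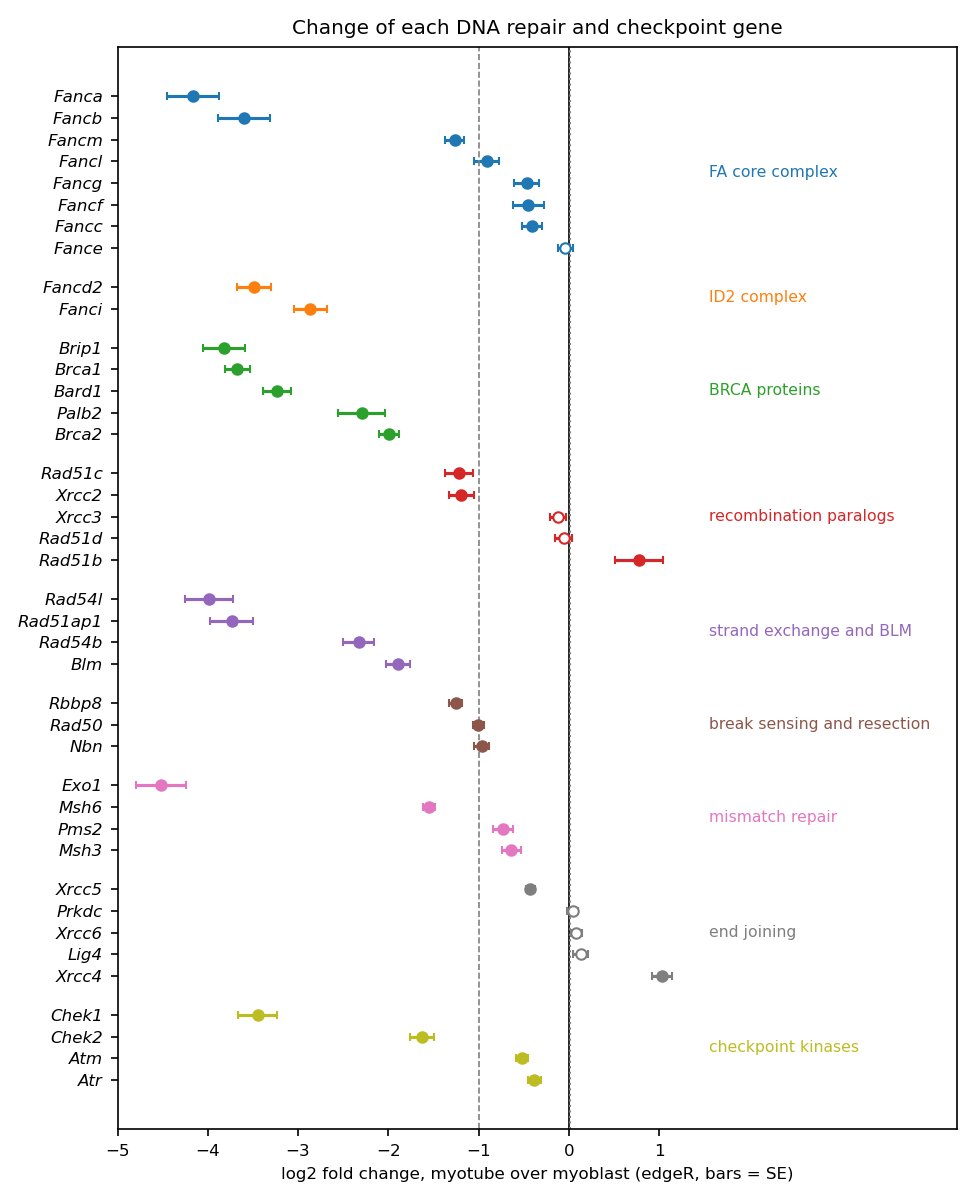
Log2 fold change of each gene, myotubes over myoblasts, by role. Filled points passed an adjusted p of 0.05 and open points did not. Bars are the larger of the SE derived from the test and the counting standard error. Dashed and dotted lines mark a 2-fold decrease and the median of all genes (0.02). Exo1 lies furthest left at −4.52 and Xrcc4 furthest right at 1.03.

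Promoter windows are shown for the 2 genes with the largest decrease and the 2 with the largest increase among the 31 members that have an entry in the RefSeq promoter table of GRCm38.p6. They set the sequence at these starts beside the opposite changes. Each window runs 5′ to 3′ on the gene's strand from 250 bases before to 50 bases after a transcription start, the start furthest upstream where the table has several. Capitals mark the CCAAT box, or its reverse complement ATTGG, a promoter element bound by the factor NF-Y. Fanca and Rad54l, lower in myotubes, are at chr8:123318527-123318826 and chr4:116123641-116123940, both on the minus strand. Xrcc4 and Rad51b, higher in myotubes, are at chr13:90089559-90089858 on the minus strand and chr12:79297032-79297331 on the plus strand.
Fanca: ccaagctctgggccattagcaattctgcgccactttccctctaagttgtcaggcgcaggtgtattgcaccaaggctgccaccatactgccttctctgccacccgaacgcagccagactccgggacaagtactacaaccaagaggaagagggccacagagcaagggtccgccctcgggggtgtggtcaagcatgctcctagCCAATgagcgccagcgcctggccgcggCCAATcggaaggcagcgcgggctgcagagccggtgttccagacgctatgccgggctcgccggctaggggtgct
Rad54l: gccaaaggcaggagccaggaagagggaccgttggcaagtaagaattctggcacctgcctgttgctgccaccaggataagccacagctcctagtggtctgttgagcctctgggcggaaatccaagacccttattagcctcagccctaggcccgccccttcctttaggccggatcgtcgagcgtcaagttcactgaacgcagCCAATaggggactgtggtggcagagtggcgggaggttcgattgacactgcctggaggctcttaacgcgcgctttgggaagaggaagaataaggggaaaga
Xrcc4: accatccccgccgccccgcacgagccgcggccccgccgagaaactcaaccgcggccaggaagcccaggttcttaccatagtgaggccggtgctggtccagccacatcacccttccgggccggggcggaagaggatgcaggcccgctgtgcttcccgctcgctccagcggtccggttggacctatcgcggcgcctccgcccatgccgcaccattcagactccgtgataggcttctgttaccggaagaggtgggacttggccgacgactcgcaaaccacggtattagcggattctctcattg
Rad51b: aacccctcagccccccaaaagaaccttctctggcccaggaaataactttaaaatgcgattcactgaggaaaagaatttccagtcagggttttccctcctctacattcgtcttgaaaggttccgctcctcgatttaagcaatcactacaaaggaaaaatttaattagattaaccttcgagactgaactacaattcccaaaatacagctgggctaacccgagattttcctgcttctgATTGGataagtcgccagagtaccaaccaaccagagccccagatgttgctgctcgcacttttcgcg

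Fanca held 2 CCAAT boxes, which begin 50 and 23 bases before the start, and Rad54l held 1 at 50 bases before it. The starts used for Fanca and Rad54l lie inside the gene spans given below, and both Fanca boxes lie within its span. Rad51b held 1 in the reverse orientation at 15 bases before the start, and Xrcc4 held 0. Both strands were searched, and matches that overlap were each counted. A CCAAT box was found in 20 of the 31 member windows (64.5%), in 39.0% of the windows of 9890 tested genes and in 38.0% of all 27025 windows. The words TTTCCCGC, TTTCGCGC, TTTGCCGC and TTTGGCGC, forms of the site of E2F factors, which drive S-phase genes, were found in 8 of 31 member windows (25.8%), in 4.20% of the windows of tested genes and in 2.33% of all windows. These 8 were Bard1, Brca2, Chek2, Msh6, Rad51c, Msh3, Fancg and Xrcc6, and 0 of the 4 windows printed above held such a word. In Msh3 the E2F words overlapped each other, and no E2F word overlapped a CCAAT box in a member. Of the 8 members with an E2F word 4 were lower by more than 2-fold, and of the 23 without one 11 were. Of the 20 members with a CCAAT box 11 were lower by more than 2-fold, and of the 11 without one 4 were. The differences between these shares were not tested. TTTGAA, the cell cycle homology element of mitotic promoters, was found in 1 member window, that of Bard1, and in 11.6% of the windows of tested genes. These matches describe letters in the windows and show no binding.

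Within the Fanconi core complex, changes ranged from a log2 change of −4.17 to −0.04, and 7 of 8 genes were lower. Fanca, a scaffold subunit (Entrez gene 14087, chromosome 8 at 123266294 to 123318651, GRCm38), had 21.8, 22.5 and 18.9 CPM in myoblast libraries 1, 2 and 3 and 0.856, 1.76 and 0.884 CPM in myotube libraries 1, 2 and 3. Every myotube library lay below every myoblast library, at a fitted 5.57% of the myoblast level (log2 change −4.17, adjusted p = 4.37e-16 by edgeR). With 26 counts in the myotube group, the ratio of summed counts was 18.2 with a 95% counting interval of 12.3 to 28.0. Fanca shares 10.5% of its exon bases with Zfp276, on the opposite strand, which had 22.8 CPM in myotubes. Fancb, whose product pairs with the catalytic subunit FANCL, fell to 8.24% of the level in myoblasts (14.9 ± 1.78 against 1.21 ± 0.247 CPM, counting interval of the ratio 8.31 to 18.8). Fancm, the translocase that anchors the complex on DNA, fell to 41.6%, and Fancl, the ubiquitin ligase subunit, to 53.2%. Fancg, Fancf and Fancc, structural subunits, were at 72.3, 73.3 and 75.3% of their myoblast levels. Fance, which contacts FANCD2, had 24.6, 23.6 and 22.7 CPM in myoblasts and 22.8, 23.0 and 23.2 CPM in myotubes. The libraries of the groups overlapped, and Fance was not called (log2 change −0.04, SE 0.09, adjusted p = 0.696). Fancf (adjusted p = 0.0199) lost its call in 5 of 14 alternatives. It did so when myoblast library 1 (adjusted p = 0.0554), myoblast library 2 (0.0945), myotube library 2 (0.0556) or myotube library 3 (0.0666) was left out, and all alternatives lay between 0.00275 and 0.0945.

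Both substrates of the core complex fell. Fancd2 had 35, 28.8 and 27.3 CPM in myoblasts and 2.85, 2.44 and 2.78 CPM in myotubes, 8.90% of the myoblast level (log2 change −3.49, adjusted p = 1.13e-16). Its ratio of summed counts was 11.3, with a 95% counting interval of 8.69 to 14.9. Its partner Fanci had 22.6, 22.0 and 23.3 CPM in myoblasts and 4.85, 2.98 and 1.64 CPM in myotubes (log2 change −2.86, adjusted p = 9.14e-14, counting interval of the ratio 5.71 to 9.50). The myotube libraries of Fanci spread widely, and all lay below the myoblast libraries. Fanci shares 16.0% of its exon bases with Polg, on the opposite strand, which had 47.3 CPM in myotubes. Whether the counting used strand is not stated in the labels or the submitters' processing notes, so the low myotube levels of Fanci and Fanca are uncertain.

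The genes of the BRCA proteins fell together, 5 of 5 by more than 2-fold, with a median log2 change of −3.23. Brip1, a helicase that binds BRCA1 (Entrez gene 237911, chromosome 11 at 86058136 to 86201215), had 25.5, 25.9 and 25.2 CPM in myoblasts and 2.00, 1.35 and 2.02 CPM in myotubes. That is 7.07% of the myoblast level (log2 change −3.82, adjusted p = 1.87e-17), with a ratio of summed counts of 14.3 and a 95% counting interval of 10.4 to 20.1. Brca1, a ubiquitin ligase that promotes end resection, fell from 63.0 ± 0.772 to 4.90 ± 0.807 CPM, and its partner Bard1 from 37.6 ± 1.84 to 3.99 ± 0.115 CPM, with counting intervals of the ratio of 10.5 to 15.6 and 7.59 to 11.8. Palb2, the bridge between BRCA1 and BRCA2, fell from 7.52 ± 0.762 to 1.53 ± 0.597 CPM (interval 3.46 to 7.31). Brca2, a mediator of recombination at resected ends, changed least in this group, with 39.3, 37.8 and 36.4 CPM in myoblasts and 8.99, 9.88 and 9.60 CPM in myotubes (log2 change −1.99, adjusted p = 6.45e-16, interval of the ratio 3.44 to 4.63). Its myotube libraries stayed at 25.1% of the myoblast level, and the groups did not overlap.

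The recombination paralogs (Rad51b, Rad51c, Rad51d, Xrcc2 and Xrcc3), whose products form complexes that help homologous recombination start, moved apart: 2 were lower, 1 higher and 2 not called. Rad51c, part of both paralog complexes, had 11.1, 11.7 and 11 CPM in myoblasts and 4.28, 5.14 and 5.05 CPM in myotubes (log2 change −1.22, adjusted p = 4.56e-08, counting interval of the ratio 1.88 to 2.91). Xrcc2 fell to 43.8% of its myoblast level. Rad51d, the direct partner of XRCC2, had 25.6, 24.7 and 23.7 CPM in myoblasts and 22.5, 21.5 and 26.9 CPM in myotubes, with overlapping groups and no call (log2 change −0.06, SE 0.09, adjusted p = 0.574). Xrcc3, the partner of RAD51C, was not called either (log2 change −0.12, adjusted p = 0.229). With total-count scaling in place of TMM, Rad51d (log2 change −0.20, adjusted p = 0.0462) and Xrcc3 (log2 change −0.26, adjusted p = 0.00889) were called lower; that scaling moved the median of all genes by −0.15. Rad51b had 2.88, 2.03 and 2.17 CPM in myoblasts and 5.28, 2.30 and 4.55 CPM in myotubes (log2 change 0.78, SE 0.26, adjusted p = 0.00983). Myotube library 2 lay below myoblast library 1, so the groups overlapped, and without myotube library 1 the call was lost (log2 change 0.55, adjusted p = 0.084; all alternatives lay between 0.000636 and 0.084).

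**Figure D2:**
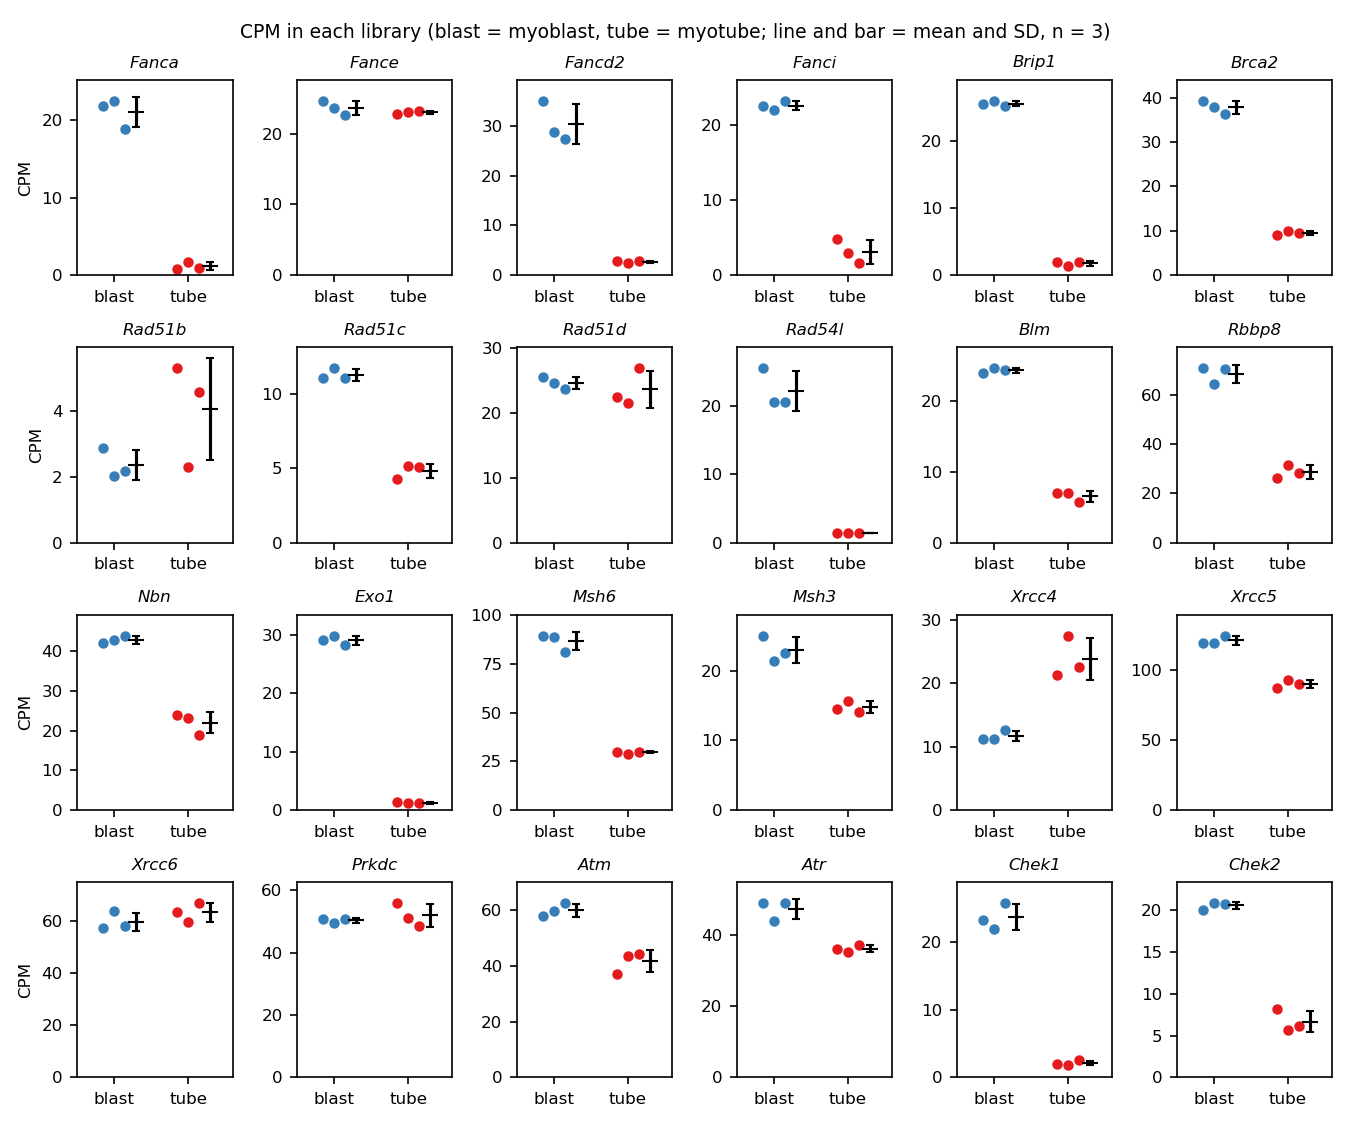
CPM of 24 genes in each of the 6 libraries, on axes that start at 0. Points are libraries, and the line and bar beside them are mean and SD (n = 3). Myoblast and myotube points lie apart for Fanca, Exo1 and Chek1 and overlap for Fance, Rad51d, Rad51b, Xrcc6 and Prkdc.

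Genes of strand exchange and of the helicase BLM all fell by more than 2-fold (4 of 4). Rad54l, a motor protein that works during strand exchange (Entrez gene 19366, chromosome 4 at 116094261 to 116123700), had 25.5, 20.6 and 20.5 CPM in myoblasts and 1.43, 1.35 and 1.39 CPM in myotubes. The myotube libraries lay close together at 6.32% of the myoblast level (log2 change −3.98, adjusted p = 3.12e-16), a ratio of summed counts of 16.0 with a 95% counting interval of 11.1 to 23.7. Rad54l shares 15.4% of its exon bases with Lrrc41, on the opposite strand, which had 102 CPM in myotubes, so its low level is uncertain too. Rad51ap1, whose product stimulates the joining of DNA strands, fell from 23.4 ± 2.01 to 1.74 ± 0.359 CPM (counting interval of the ratio 9.71 to 19.0). Rad54b, a relative of Rad54l, fell from 18.5 ± 1.08 to 3.67 ± 0.602 CPM (interval 4.00 to 6.43). It shares 35.8% of its exon bases with Fsbp on the same strand, so its level is uncertain. The level of Fsbp was 0.867 CPM in myoblasts and 0.224 CPM in myotubes. Blm, which unwinds recombination intermediates, had 24.0, 24.6 and 24.4 CPM in myoblasts and 6.99, 7.04 and 5.68 CPM in myotubes (log2 change −1.89, adjusted p = 1.15e-13, interval 3.12 to 4.47).

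The 3 genes grouped under break sensing and resection changed less than the BRCA genes. Exo1, which also acts in end resection, is listed under mismatch repair and fell further (log2 change −4.52). Rbbp8 (CtIP), which starts end resection, had 70.9, 64.6 and 70.5 CPM in myoblasts and 26.4, 31.7 and 28.2 CPM in myotubes (log2 change −1.25, SE 0.07, adjusted p = 2.41e-14). It was the only gene of these 3 called lower by more than 2-fold. Nbn had 42.0, 42.8 and 43.9 CPM in myoblasts and 24.0, 23.1 and 18.9 CPM in myotubes (log2 change −0.97, SE 0.08, adjusted p = 7.51e-11). Rad50, its partner in the complex that recognises broken ends and activates ATM, fell to 50% of the level in myoblasts (76.1 ± 2.11 against 38.0 ± 3.09 CPM). The groups did not overlap for any of these 3 genes, as for 80.5% of all genes tested.

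The 4 genes listed under mismatch repair were lower, over a wide range. Exo1, an exonuclease that acts in mismatch repair and in end resection (Entrez gene 26909, chromosome 1 at 175880768 to 175911396), showed the largest decrease of the 40 genes. It had 29.1, 29.9 and 28.4 CPM in myoblasts and 1.43, 1.22 and 1.14 CPM in myotubes, 4.35% of the myoblast level (log2 change −4.52, adjusted p = 8.70e-19). Only 0.25% of the genes tested had a lower log2 change, and with 28 counts in the myotube group the ratio of summed counts was 23.2 with a 95% counting interval of 16.0 to 35.2. Msh6, a subunit of the main mismatch sensor, was at 86.6 ± 4.58 CPM in myoblasts and at 29.5 ± 0.518 CPM in myotubes (log2 change −1.55, SE 0.07). Msh3, its alternative for larger loops, changed least of the 4, with 25.1, 21.4 and 22.6 CPM in myoblasts and 14.6, 15.7 and 14.1 CPM in myotubes (log2 change −0.64, SE 0.10, adjusted p = 3.54e-06). Pms2, the endonuclease subunit, fell to 60.4% of its myoblast level. For none of the 4 did the groups overlap, as for 80.5% of all genes tested.

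End joining genes kept most of their level, summing to 268 ± 2.30 CPM in myoblasts and 256 ± 2.12 CPM in myotubes (SD, n = 3). Xrcc4, the scaffold of the ligase complex (Entrez gene 108138, chromosome 13 at 89848914 to 90089608), had 11.2, 11.2 and 12.6 CPM in myoblasts and 21.3, 27.5 and 22.6 CPM in myotubes. Every myotube library lay above every myoblast library (log2 change 1.03, SE 0.11, adjusted p = 5.76e-09), and the increase was not called as more than 2-fold. Lig4, the ligase that XRCC4 binds, went from 24.7 ± 1.26 to 27.1 ± 1.53 CPM and was not called (log2 change 0.13, SE 0.08, adjusted p = 0.151). Prkdc, the DNA-dependent kinase recruited to ends, had 50.9, 49.4 and 50.8 CPM in myoblasts and 55.9, 51.3 and 48.6 CPM in myotubes (log2 change 0.04, SE 0.06, adjusted p = 0.543). Its groups overlapped. The Ku subunits, which form a ring on broken ends, differed: Xrcc5 (Ku80) was lower in myotubes, at 90.3 ± 2.75 against 121 ± 2.99 CPM (log2 change −0.43, SE 0.05, adjusted p = 1.58e-08), while Xrcc6 (Ku70) had 59.6 ± 3.56 and 63.2 ± 3.64 CPM and was not called (log2 change 0.08, SE 0.06, adjusted p = 0.221). With total-count scaling the log2 changes of Xrcc6, Prkdc and Lig4 were −0.06, −0.10 and −0.01, still without a call. Beside these levels, the end joining genes made up 20.6% ± 0.499 of the summed CPM of the 40 genes in myoblasts and 38.3% ± 0.528 in myotubes.

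All 4 checkpoint kinase genes were lower, with the larger log2 changes in the genes of the effector kinases. Chek1, the kinase that ATR activates at stalled forks (Entrez gene 12649, chromosome 9 at 36708482 to 36726658), had 23.3, 21.9 and 25.7 CPM in myoblasts and 2.00, 1.89 and 2.53 CPM in myotubes, 9.18% of the myoblast level (log2 change −3.45, adjusted p = 2.50e-16). Its ratio of summed counts was 10.9, with a 95% counting interval of 8.17 to 15. Chek2, the kinase that ATM activates, had 20.0, 20.8 and 20.7 CPM in myoblasts and 8.13, 5.68 and 6.19 CPM in myotubes (log2 change −1.63, adjusted p = 1.25e-11, interval of the ratio 2.59 to 3.72). Both effector kinases were called lower by more than 2-fold, and neither Atm nor Atr, the kinases upstream of them, was. Atm had 57.9, 59.6 and 62.6 CPM in myoblasts and 37.1, 43.7 and 44.2 CPM in myotubes (log2 change −0.52, SE 0.07, adjusted p = 1.59e-07). Atr had 49.0, 44.1 and 49.1 CPM in myoblasts and 36.2, 35.3 and 37.3 CPM in myotubes (log2 change −0.38, SE 0.07, adjusted p = 2.03e-05). The groups did not overlap for any of the 4 kinases, as for 80.5% of all genes tested. Within each library the log2 ratio of Chek1 to Atr was −1.01 ± 0.07 in the myoblast group and −4.09 ± 0.18 in the myotube group (difference −3.09; SD, n = 3). That of Chek2 to Atm was −1.55 ± 0.04 and −2.66 ± 0.41 (difference −1.11). For each, p = 0.1 by an exact permutation test, two-sided, the smallest p that 3 against 3 libraries allow (0.143 adjusted over 10 pairs), so these differences cannot pass 0.05.

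The other 8 pairs were partners or relatives, compared in the same way. The myotube and myoblast ratios did not overlap for Xrcc4 to Lig4 (difference 0.89), Xrcc5 to Xrcc6 (difference −0.51), Msh6 to Msh3 (−0.91), Brca1 to Bard1 (−0.46) and Rad54l to Rad54b (−1.65), each with an exact permutation p = 0.1. They overlapped for Fancd2 to Fanci (difference −0.51, exact permutation p = 0.4), Brca2 to Palb2 (0.37, exact permutation p = 0.5) and Rad50 to Nbn (−0.04, exact permutation p = 0.8). The log2 ratio of Rad50 to Nbn was 0.83 ± 0.06 in the myoblast group and 0.79 ± 0.21 in the myotube group. Ratios that include Rad54l, Rad54b or Fanci are as uncertain as the levels of these genes, which share exon bases with other genes.

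Levels of different genes were compared per length, as mean CPM per kilobase of annotated exon. In myoblasts Xrcc5 was highest with 47.5 CPM per kb, followed by Msh6 with 19.9, Nbn with 16.9, Rad50 with 14.2 and Xrcc6 with 13.3. In myotubes Xrcc5 was again highest with 35.3 CPM per kb, followed by Xrcc6 with 14.1, Xrcc3 with 9.77 and Nbn with 8.69. The lowest in myotubes were Fanca with 0.133, Exo1 with 0.150 and Rad54l with 0.180 CPM per kb, which had 2.41, 3.46 and 2.88 CPM per kb in myoblasts. For Fanca and Rad54l the low values are uncertain, since both share exon bases with a gene on the opposite strand. Brca1, with 7.38 CPM per kb in myoblasts, stood near Fance with 7.40, and in myotubes Brca1 had 0.574 and Fance 7.21 CPM per kb. The exon length is the union of all annotated exons, so exons that are rarely used lower a gene's value per kb.

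**Figure D3:**
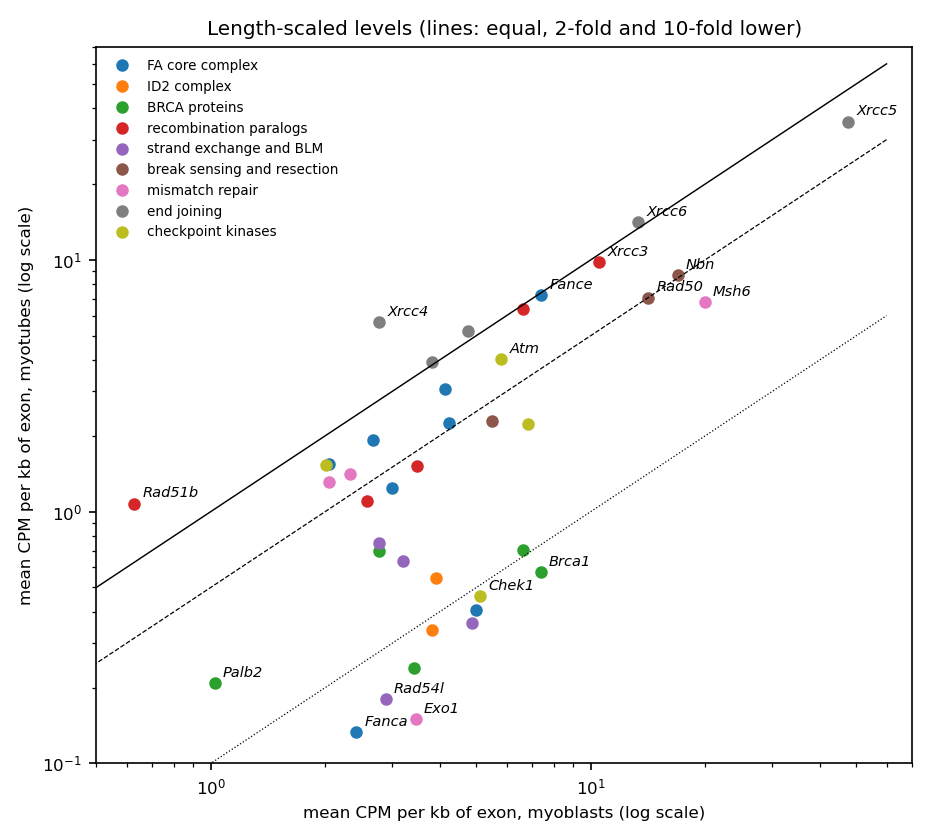
Mean CPM per kb of exon in myoblasts (horizontal) and myotubes (vertical), both on log scales, 1 point per gene, coloured by role. The solid, dashed and dotted lines mark equal, 2-fold lower and 10-fold lower levels. Xrcc4 and Rad51b lie furthest above the solid line, Fance and Xrcc6 lie close to it, and 9 genes, among them Exo1, Fanca and Brca1, lie below the dotted line.

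Other genes of these pathways, from lists chosen with earlier results known, were set beside the members. Of 41 other Fanconi and recombination genes tested, 27 were lower and 6 higher (median log2 change −0.51), from the crosslink nuclease subunit gene Eme1 (−4.70) to Zswim7 (1.01). Of 19 other checkpoint genes 14 were lower and 2 higher (median −1.23), from Clspn, the mediator between ATR and CHEK1 (−3.75), to Rad9b (2.19). Of 5 other mismatch repair genes 3 were lower and 1 higher, the higher one being Mlh3 (0.55). The other end joining genes had no common direction, with 3 of 11 lower and 3 higher (median 0.02), from the polymerase gene Polm (−1.12) to the Ku-binding factor gene Paxx (1.83).

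Base and nucleotide excision repair, which mend damaged bases and bulky lesions, had calls in different proportions. Of 17 base excision repair genes 12 were lower and 4 higher (median −0.62), from the glycosylase genes Neil3 (−3.48) to Neil1 (2.04). Of 14 nucleotide excision repair genes 3 were lower and 8 higher (median 0.33), with the largest decrease in Ercc1 (−0.71). Among 15 target genes of p53, the transcription factor downstream of the checkpoint kinases, 12 were higher and 3 lower (median 0.82), from Gadd45a, which went from 25.8 to 343 CPM, to Bax (−0.74). Trp53, the gene of p53, counted among the other checkpoint genes, was lower (156 against 76.3 CPM in myotubes, log2 change −1.03). Whether p53 activity differed was not tested. Over all genes tested 39.2% were lower and 40.2% higher, and the differences between lists were not tested.

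**Figure D4:**
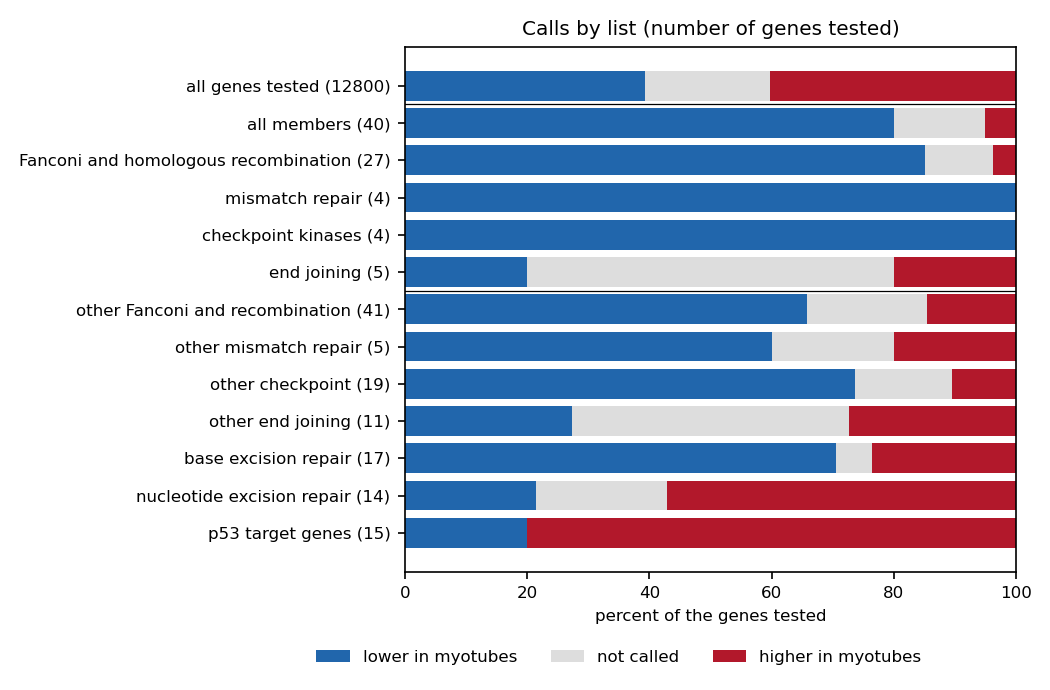
Percent of the genes tested in each list that were lower, not called or higher in myotubes at an adjusted p of 0.05, with the number of genes tested in brackets. Over all genes 39.2% were lower and 40.2% higher, whereas 32 of the 40 members were lower; 8 of 14 nucleotide excision repair genes and 12 of 15 p53 target genes were higher.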

How the data were processed

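The deposited table holds raw counts of reads in each gene for 6 libraries. TRIzol extraction and a stranded kit for mRNA are stated per the labels' protocols. Per the submitters' processing notes, fastp, STAR, featureCounts and mm10 were used; versions, strand setting and treatment of reads with several matches were not given in the sources used here. Members, lists and tests were chosen with earlier results of these data known.

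Genes were kept by filterByExpr (minimum count 10, total 15), which left 12800, scaled by TMM and tested with edgeR 4.0.16 in R 4.3.3 (robust quasi-likelihood test, no block, glmTreat at a log2 threshold of 1, Benjamini-Hochberg adjustment over all genes, threshold 0.05). The pipeline was checked on simulated data with few changed genes, balanced in direction. Most genes were called in these data, so that check does not cover the scaling here. CPM are after TMM scaling. The SE was derived from the test, as the absolute log2 change over the square root of the F statistic. It was below the counting error of the summed counts for 17 members. For those an exact binomial 95% interval of the ratio is given, which covers counting error only. The SE and the counting error are computed in different ways, so their comparison does not show a spread below counting noise. Every replicate pair differed by more than counting noise (chi-square per degree of freedom 1.35 to 3.22). Values in every library are printed for the largest and smallest change of each role group, the kinases and genes called higher. For other lists, values are given for the largest change in each direction among called genes with at least 1 CPM, and for Trp53. Some genes that this rule names are not reported here. In the lists, 3 symbols were matched by synonym and 1 was unmatched.

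The alternatives tried were size factors and the Wald test of DESeq2 1.42.0, total counts, limma-voom (3.58.1), no filter, a 1 CPM filter in 3 libraries, a replicate block, thinning and leaving out each library. Gene positions are from RefSeq, exon lengths and overlaps from GENCODE M21 and promoter windows from RefSeq GRCm38.p6, all on the assembly that mm10 names.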

Additional observations from a re-analysis of the deposited data

How the results depend on the processing

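Over 14 alternatives the number of members lower in myotubes was 31 to 34, and the number lower by more than 2-fold 17 to 22. Of 560 member values under these alternatives, 546 kept their direction and side of the threshold, and 33 of the 40 members did so under every one. With total-count scaling the median log2 change of the members was −1.35, and that of all genes moved by −0.15. A change of scaling shifts all genes nearly alike, so the distance between these medians, −1.22 under both scalings, could hardly differ. That distance does not test the scaling. Leaving out 1 library at a time gave medians of −1.25 to −1.10 and 1 or 2 members higher, the second being Rad51b, whose call was lost without myotube library 1. Under total-count scaling the log2 changes of Xrcc6, Prkdc and Lig4 turned to −0.063, −0.10 and −0.013. Prkdc was at −0.0036 with no filter. Leaving out 1 library at a time gave −0.012 (without myotube library 1) to 0.089 for Prkdc, and −0.17 to 0.0072 (without myotube library 2) for Rad51d. None of these values on the other side of 0 was called. The causes were not tested. Fancf also lost its call in the DESeq2 Wald test (adjusted p = 0.0834).

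With a replicate block 32 members were lower, 2 higher and 19 lower by more than 2-fold, as without it, and the median was −1.20. The block changed no call of a member. Same-numbered libraries did not deviate together, with correlations of −0.0018, 0.011 and 0.00035, and not every library correlated best with its own number.

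Depth limits the members with few counts in myotubes: 13 had under 100 counts over the 3 libraries. Genes that share exons with an overlapping gene (Fanca with Zfp276, Fancc, Fancf with Gas2, Fanci with Polg, Fancl with Vrk2 and Rad54l with Lrrc41 on the opposite strand, each over at least 10% of exon bases) have uncertain levels, since the strand setting is not stated. Rad54b shares exons with Fsbp on the same strand, so its level is uncertain under either strand setting.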
